A study of Homo sapiens with 15 samples.

Results

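Presentation of peptides by MHC class I starts with a small group of genes, and 9 of them were followed here in MM cells grown with and without BMSCs. They were HLA-B, HLA-C, HLA-E and HLA-F, which code for heavy chains, B2M, which codes for the light chain, TAP1 and TAP2, which code for the peptide transporter, TAPBP, which codes for tapasin, and NLRC5, which codes for the transcriptional activator of class I genes. The 9 symbols were chosen by their role in the pathway, with earlier results of these data known, from the 20468 genes of the expression tables. Each symbol matched 1 gene. The study grew the MM lines MM.1S and RPMI8226 for 48 h alone (MONO) or with the stromal line HS5. MM cells with HS5 were in the upper chamber of a transwell (TSW) or in contact with HS5 in the lower chamber (CO). The transwell was placed in wells that already held MM cells on HS5. Which TSW and CO libraries shared a well was not stated. Soluble factors pass the membrane, so TSW cells shared medium with HS5 cells and CO cells had contact as well. Live CD90- CD38+ cells were sorted before RNA was taken, and only the cocultures are described as treated with trypsin. MM.1S had 3 libraries per condition and RPMI8226 had 2, which made 15 libraries.

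Depth recovered from the smallest steps between values was 9008909, 19050586 and 13265365 paired-end tags (PETs) in the MM.1S MONO libraries. It was 14260609, 15206078 and 13126596 PETs in MM.1S TSW and 16100416, 15341217 and 13825024 PETs in MM.1S CO. In RPMI8226 it was 12479635 and 14806057 PETs in MONO, 18538060 and 17929263 in TSW, and 16316178 and 18790009 in CO. A gene of 2 kb with a single PET would have an RPKM of 0.0263 to 0.0555, far below the level of every member except NLRC5 in MM.1S. NLRC5 had 46 to 293 PETs per library in MM.1S and 428 to 1308 in RPMI8226, whereas B2M had 13510 to 25555 in MM.1S and 16423 to 89874 in RPMI8226. These limits cover counting error only.

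Conditions of each line were compared with limma on log2(RPKM+1), and a gene was called changed at an adjusted p below 0.05 with a fold change above 1.5. It was not stated whether replicates came from separate cultures, so the p-values measure only the spread between libraries. The TSW and CO comparisons share the MONO libraries of the line, and their values are therefore given side by side. RPKM values of the lines were normalized separately, so differences between MM.1S and RPMI8226 were not tested. Addition of 1 before the logarithm makes fold changes of genes at low RPKM smaller, which bears on NLRC5 in particular. A gene was tested when its RPKM averaged 1 or more over all libraries of its line. A gene low in MONO can therefore be tested through TSW and CO alone, which bears on counts of genes that rose. Groups of 2 or 3 libraries can separate without a change, and the share of all genes whose groups separate was not counted.

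Marker genes were read next to see what the libraries contained. All 10 plasma cell genes were found in both lines, and JCHAIN was the most abundant of them, at an RPKM of 1924 to 4102 in MM.1S and 1366 to 2927 in RPMI8226. SLAMF7 was nearly silent in RPMI8226, at 0.0184 to 0.104. Genes of T and NK cells summed to at most 4.05 in any library, with CD3E up to 2.05 and GNLY up to 1.28 in MM.1S and CD3D at 0. Genes of B cells summed to at most 0.685, with PAX5 highest and MS4A1 at 0. Of the myeloid genes, ITGAM had an RPKM of 2.02 to 13.4 in RPMI8226 and rose in TSW and CO, CSF1R rose by 1.35 and 1.63, and FCGR3A was at 0. Plasma cell genes themselves responded to BMSCs, since POU2AF1, PRDM1 and XBP1 rose and TNFRSF17 fell in TSW relative to MONO in both lines. JCHAIN fell in MM.1S TSW and rose in RPMI8226 TSW. CD38, on which the cells were sorted, rose in RPMI8226 from a mean of 15.99 in MONO to 45.8 in TSW and 52.95 in CO, by 1.46 (limma adjusted p 2.21e-07) and 1.67 (6.1e-08). In MM.1S CD38 was at means of 54.98 in MONO, 48.9 in TSW and 58.95 in CO, where MONO overlapped both and CO was above TSW in all libraries, and it was not called. IRF4 fell in RPMI8226 by 0.94 in TSW and 0.93 in CO.

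Genes of stromal cells separated CO from the other conditions. The RPKM of 28 stromal genes summed to 9.88, 12.8 and 13.1 in MM.1S MONO, 6.95, 8.14 and 7.74 in TSW, and 159, 175 and 144.5 in CO. MMP1 was at 0 in every MONO and TSW library of both lines and reached 44.6, 46.9 and 41.0 in MM.1S CO. In RPMI8226 FN1 was an MM cell transcript, at 3990 and 4310 in MONO, and it was left out of the sum after the values were seen. The remaining 27 genes summed to 4.54 and 4.51 in RPMI8226 MONO, 5.36 and 5.23 in TSW, and 92.8 and 137.2 in CO. CO libraries of both lines therefore contained RNA of stromal genes, such as MMP1, that TSW libraries lacked. LOX was called higher in RPMI8226 TSW as well, at 0.68 (limma adjusted p 0.000503). IGFBP7 fell in MM.1S by 1.47 in TSW and 1.46 in CO, and FN1 fell in RPMI8226 by 1.19 in TSW and 0.99 in CO, to 2007 and 2169 in CO. Which cells this RNA came from was not tested here, and it bears on the CO values of class I genes, which stromal cells also express.

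MM.1S MONO replicate 1 stood apart from its group before any member was tested. In this library 14.1% of genes differed more than 1.5-fold from the mean of the other MONO libraries, compared with 2.69% and 3.07% for MM.1S MONO replicates 2 and 3 and at most 0.818% in other conditions. It was kept, and B2M at 944 there against 702 and 732 in the other MONO libraries shows its weight. Members whose result depended on it are named with the value found without it.

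Class I molecules carry peptides from the cytosol to the cell surface. The heavy chains HLA-B, HLA-C, HLA-E and HLA-F fold in the endoplasmic reticulum with the B2M protein, TAP1 and TAP2 form the pump that brings peptides in, and tapasin holds the empty heavy chain beside it until a peptide is bound. Interferons raise transcription of these genes through STAT2, IRF1 and IRF9, and NLRC5 binds with other factors at the promoters of heavy chain genes and B2M. Surface protein and peptide loading were not measured here.

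The count of called members was read beside the share of all genes called in the same comparison. The members were chosen with earlier results of these data known, which limits what their counts show. All 9 members rose in TSW relative to MONO in RPMI8226, where 1500 of 10319 genes tested rose (14.5%) and 3352 passed in either direction (32.5%). All 9 also rose in CO relative to MONO, where 16.4% of genes tested rose and 39.3% passed in either direction. In MM.1S 2 members, TAP1 and NLRC5, rose in TSW relative to MONO, where 6.48% of 10153 genes rose and 10.6% passed in either direction. NLRC5 was the 1 member that rose in MM.1S CO relative to MONO, where 7.13% of genes rose and 11.8% passed in either direction. No member fell in any comparison. Between CO and TSW no member passed the limma test with its fold change limit in either line, where 0.414% of genes passed in MM.1S and 4.29% in RPMI8226. NLRC5 averaged 0.969 in MM.1S MONO, so it passed the filter of a mean RPKM of 1 only through TSW and CO. Without an expression filter the counts of called members in MM.1S were also 2 and 1. Counts of 2 and 1 among 9 members are too small to be set apart from the share of all genes, so MM.1S is described gene by gene below.

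**Figure D1:**
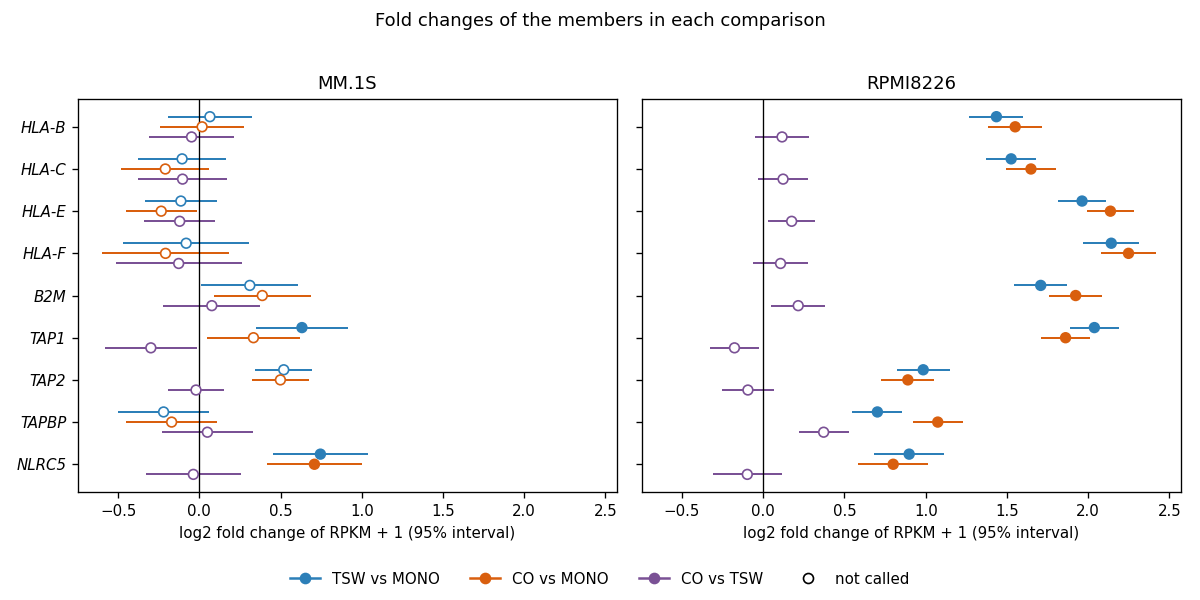
log2 fold change with 95% interval of each member in each comparison and line, filled where the gene was called. In RPMI8226 TSW relative to MONO the values ran from 0.70 for TAPBP to 2.14 for HLA-F.

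The fold changes of the members are given for each line. In RPMI8226 every interval for TSW and CO relative to MONO lay above 0, with HLA-F and TAP1 at 2.14 and 2.04 in TSW and TAPBP at 0.70. In MM.1S only TAP1, TAP2, NLRC5 and B2M had intervals above 0 in TSW and CO. The median log2 fold change of the 9 members was 1.53 in RPMI8226 TSW and 1.65 in CO relative to MONO, compared with -0.08 and -0.09 for all genes tested. In MM.1S it was 0.07 and 0.02, compared with 0.01 for all genes in each comparison.

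The order of members by RPKM was nearly the same in the lines before any stroma was added. In MM.1S MONO B2M had the highest mean at 793, followed by HLA-B at 279, HLA-C at 188, TAPBP at 147, HLA-E at 85.3, TAP1 at 24.6, TAP2 at 22.6, HLA-F at 6.54 and NLRC5 at 0.969. Of these neighbours, HLA-C overlapped TAPBP and TAP1 overlapped TAP2. In RPMI8226 MONO the order was B2M at 809.5, HLA-B at 433.5, HLA-C at 161, TAPBP at 102, HLA-E at 42.8, TAP1 at 34.9, TAP2 at 27.5, NLRC5 at 4.40 and HLA-F at 4.20. There only NLRC5 and HLA-F overlapped. In RPMI8226 TSW HLA-E passed TAPBP, at means of 169.9 and 166 with overlapping libraries, and HLA-F stood above NLRC5. In RPMI8226 CO TAPBP was again above HLA-E, at 215.5 and 192.

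**Figure D2:**
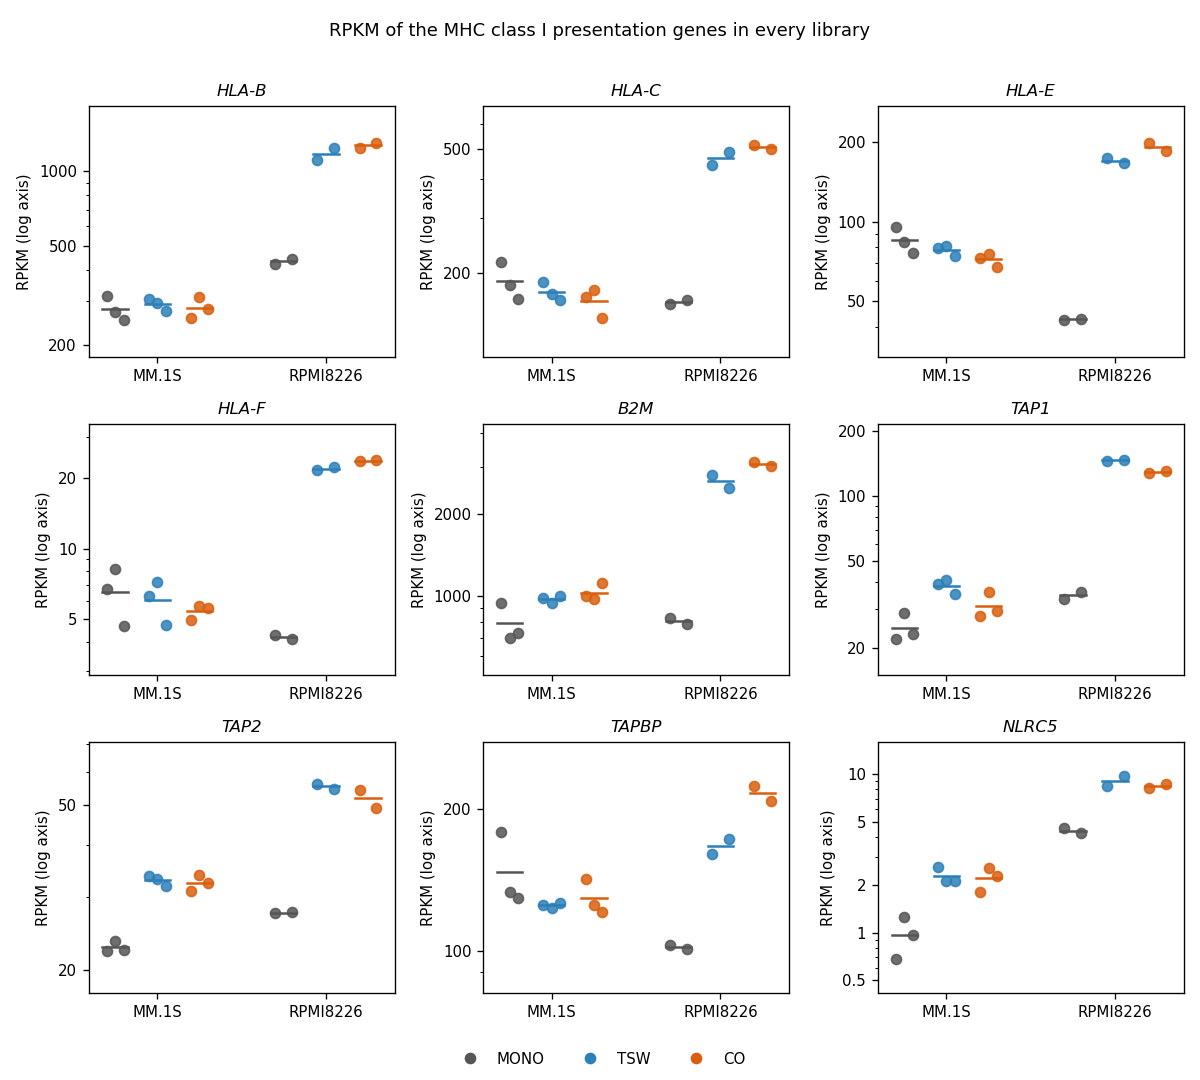
RPKM of each member in each library on a log axis, with a line at the mean of each condition. In RPMI8226 B2M went from a mean of 809.5 in MONO to 2650 in TSW and 3073 in CO.

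The RPKM values show where groups overlap and where they separate. In every panel the RPMI8226 libraries of TSW and CO lie above those of MONO, from B2M at the top to NLRC5 and HLA-F at the bottom. In MM.1S the heavy chain panels of HLA-B, HLA-C and HLA-F show conditions that lie over each other, and those of TAP2 and NLRC5 show MONO below the rest.

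Sequences before the start sites were read because the 9 members moved together in RPMI8226. The 250 bases upstream of the start were taken from the RefSeq promoters of GRCh38.p14 for the 7 members with a matching promoter, which left HLA-E and NLRC5 by name only. Both strands were searched for 6 motifs, of which 1 matched none of the 7 members. The others were the interferon-stimulated response element (ISRE, GAAA and GAAA with 2 bases between), which occurs in 3.02% of 35116 promoters, a shorter interferon regulatory factor core (GAA and GAAA with 2 bases between, 6.56%), the NF-kappaB consensus (9.96%), TGACG (21.2%) and CCAAT (32.0%). The ISRE was found in B2M, TAP1, TAP2, TAPBP and HLA-F, and HLA-B and HLA-C had the shorter core. Sequences are written in the direction of transcription, with matches in capitals, for HLA-B (6:31357180-31357429), HLA-F (6:29723184-29723433), B2M (15:44711267-44711516), TAP1 (6:32853705-32853954) and TAPBP (6:33314079-33314328).
HLA-B: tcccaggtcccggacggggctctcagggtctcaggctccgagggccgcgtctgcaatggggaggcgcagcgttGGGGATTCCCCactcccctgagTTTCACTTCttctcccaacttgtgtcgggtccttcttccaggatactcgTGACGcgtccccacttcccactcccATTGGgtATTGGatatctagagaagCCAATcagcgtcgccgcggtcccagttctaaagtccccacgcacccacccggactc
HLA-F: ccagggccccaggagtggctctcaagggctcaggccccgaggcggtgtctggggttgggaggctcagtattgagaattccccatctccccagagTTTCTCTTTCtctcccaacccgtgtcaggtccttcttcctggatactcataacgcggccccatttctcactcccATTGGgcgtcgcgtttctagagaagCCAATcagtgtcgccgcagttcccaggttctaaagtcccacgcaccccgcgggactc
B2M: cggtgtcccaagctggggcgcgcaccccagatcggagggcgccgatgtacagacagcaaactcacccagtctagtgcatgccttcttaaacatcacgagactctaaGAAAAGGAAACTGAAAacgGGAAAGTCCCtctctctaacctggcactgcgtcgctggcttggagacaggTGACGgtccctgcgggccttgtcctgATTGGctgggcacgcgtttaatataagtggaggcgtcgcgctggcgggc
TAP1: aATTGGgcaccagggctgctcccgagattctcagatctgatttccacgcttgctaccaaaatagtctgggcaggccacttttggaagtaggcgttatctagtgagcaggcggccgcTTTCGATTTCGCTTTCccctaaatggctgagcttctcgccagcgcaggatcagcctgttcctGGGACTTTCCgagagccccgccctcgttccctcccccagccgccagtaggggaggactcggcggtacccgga
TAPBP: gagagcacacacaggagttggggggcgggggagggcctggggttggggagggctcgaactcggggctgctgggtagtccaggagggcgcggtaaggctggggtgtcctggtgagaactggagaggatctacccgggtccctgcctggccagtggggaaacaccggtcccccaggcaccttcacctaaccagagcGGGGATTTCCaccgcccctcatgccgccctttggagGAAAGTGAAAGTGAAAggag
In HLA-B the core starts 155 bases before the start site with NF-kappaB matches at 177 and 176, TGACG at 106 and CCAAT at 81, 74 and 56. HLA-C, which is not printed, had the core at 151, NF-kappaB at 172 and TGACG at 105. HLA-F had the ISRE at 156 without an NF-kappaB match. B2M had overlapping ISRE matches at 144 and 138, NF-kappaB at 125, TGACG at 75 and CCAAT at 49. TAP1 had ISRE matches at 134 and 128 and NF-kappaB at 72, and TAPBP had them much closer to the start, at 20 and 14 with NF-kappaB at 56. Matches of this length also occur by chance, and binding was not measured here.

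HLA-B codes for a classical heavy chain and was the most abundant heavy chain member in both lines. In MM.1S its RPKM was 315, 271 and 250.4 in MONO, 307, 294 and 272 in TSW and 256, 312 and 278.5 in CO. These groups overlapped, and the highest library was MM.1S MONO replicate 1. The log2 fold change in MM.1S was 0.07 (95% interval -0.19 to 0.32, limma adjusted p 0.708) for TSW relative to MONO and 0.02 (0.921) for CO relative to MONO. Without that library HLA-B was at 0.16 and 0.11, with adjusted p of 0.273 and 0.44. In RPMI8226 HLA-B was at 423 and 444 in MONO, 1107 and 1244 in TSW and 1242 and 1302 in CO. Both MONO libraries were below all others, and TSW and CO overlapped. HLA-B rose in RPMI8226 TSW by 1.44 (interval 1.27 to 1.60, limma adjusted p 9.65e-08) and in CO by 1.55 (4.1e-08). Ranked by RPKM among all genes, HLA-B lay between places 119 and 32 in RPMI8226 libraries and between 218 and 175 in MM.1S.

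HLA-C, the other classical heavy chain among the members, was lower than HLA-B in every library. In MM.1S its RPKM was 216.5, 183 and 164 in MONO, 187, 171 and 163 in TSW and 167, 176 and 143 in CO, with overlap of all conditions. The log2 fold changes in MM.1S were -0.11 for TSW (limma adjusted p 0.547) and -0.21 for CO (0.212) relative to MONO. Without MM.1S MONO replicate 1 the TSW value of HLA-C was -0.0002 and the CO value was -0.10, and without MM.1S MONO replicate 3 they were -0.20 and -0.30. In RPMI8226 it was at 159 and 164 in MONO, 444 and 489 in TSW and 514.5 and 501 in CO. The 3 conditions of RPMI8226 did not overlap, although CO relative to TSW was not called (0.12, limma adjusted p 0.211). HLA-C rose by 1.53 in TSW (limma adjusted p 3.5e-08) and by 1.65 in CO (1.61e-08).

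HLA-E presents peptides cut from leader sequences of other class I heavy chains to NK cell receptors. MM.1S libraries had an RPKM of 95.5, 84.2 and 76.1 in MONO, 79.7, 81.2 and 74.3 in TSW and 73.1, 75.4 and 67.7 in CO. All CO libraries were below all MONO libraries, and TSW overlapped both. The difference between CO and MONO in MM.1S was -0.23 (interval -0.45 to -0.02) with a limma adjusted p of 0.094, so HLA-E was not called. Without MM.1S MONO replicate 1 it was -0.15 (0.169), and the TSW value of HLA-E went from -0.11 to -0.03. Without MM.1S MONO replicate 3 the CO value of HLA-E was -0.31 (0.0327), below the fold change limit. RPMI8226 libraries had HLA-E at 42.6 and 43.1 in MONO, 174 and 166 in TSW and 198 and 186 in CO. CO was above TSW and TSW above MONO, although CO relative to TSW was not called (0.17, limma adjusted p 0.0731). HLA-E rose in RPMI8226 by 1.96 in TSW (limma adjusted p 4.74e-09) and by 2.14 in CO (2.27e-09), which was a fold change of 3.898 and 4.4. MM.1S started at a higher RPKM of HLA-E than RPMI8226 and ended at a lower one, a comparison that was not tested.

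HLA-F, a nonclassical heavy chain with low expression in most cells, was the least abundant heavy chain member. In MM.1S its RPKM was 6.74, 8.17 and 4.70 in MONO, 6.30, 7.18 and 4.73 in TSW and 4.98, 5.68 and 5.57 in CO. The spread within MONO covered the other conditions. Its log2 fold change in MM.1S was -0.08 for TSW (limma adjusted p 0.76) and -0.21 for CO (0.38), and the interval for CO of -0.60 to 0.18 leaves room for a change either way. HLA-F was at 0.07 and -0.05 without MM.1S MONO replicate 2, and without MM.1S MONO replicate 3 it was at -0.27 and -0.40 (adjusted p 0.198 and 0.064). In RPMI8226 HLA-F was at 4.28 and 4.12 in MONO, 21.6 and 22.3 in TSW and 23.6 and 23.8 in CO. Libraries of a condition differed little there, and the conditions did not overlap. HLA-F was not called for CO relative to TSW in RPMI8226 (0.11, limma adjusted p 0.333). HLA-F rose by 2.14 in TSW (limma adjusted p 7.69e-09) and by 2.25 in CO (4.59e-09), the largest fold changes among the members at 4.416 and 4.753.

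Class I heavy chain genes share sequence with each other and with pseudogenes, and the handling of reads that map to several places and of strand was not stated. HLA-G, a nonclassical heavy chain outside the 9 members, was at 5.43 and 6.21 in RPMI8226 MONO, 16.3 and 18.0 in TSW and 13.8 and 17.9 in CO. Both MONO libraries were lowest, and HLA-G was called higher in both comparisons with MONO. The pseudogene HLA-H was at 27.5 and 29.8 in RPMI8226 MONO, 86.5 and 96.4 in TSW and 90.5 and 98.4 in CO. HLA-J was at 4.28 and 4.78 in MONO, 25.3 and 25.4 in TSW and 9.71 and 10.9 in CO. In MM.1S HLA-G was at 5.13, 11.9 and 3.96 in MONO, 5.33, 4.63 and 5.31 in TSW and 5.31, 4.58 and 3.62 in CO, with overlap. The amount of read sharing between HLA-B, HLA-C, HLA-H and HLA-J cannot be told from these values.

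**Figure D3:**
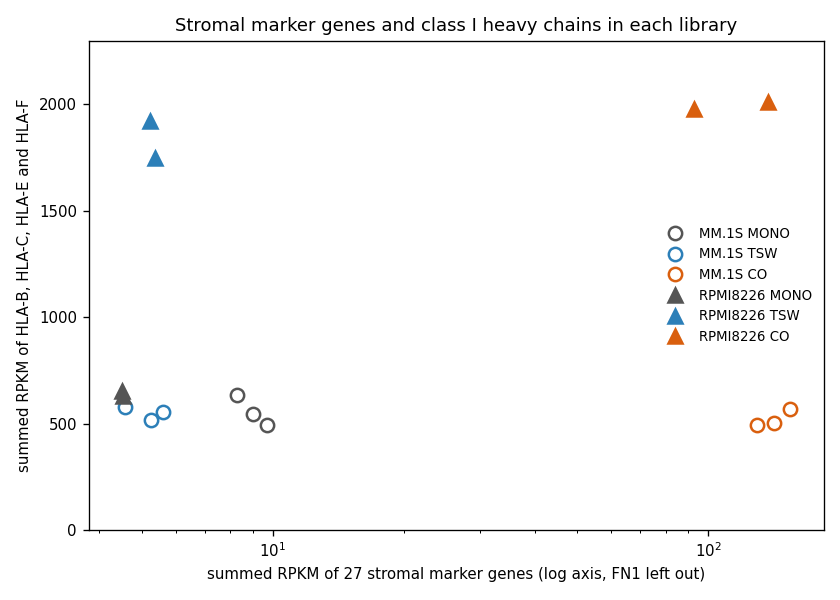
Summed RPKM of 27 stromal genes against summed RPKM of HLA-B, HLA-C, HLA-E and HLA-F in each library, with a log axis for the stromal genes and FN1 left out. RPMI8226 TSW reached 1746 and 1922 for the heavy chains at stromal sums of 5.36 and 5.23.

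Heavy chain RNA and stromal RNA were then set side by side in each library. The summed RPKM of HLA-B, HLA-C, HLA-E and HLA-F was 628.5 and 655 in RPMI8226 MONO, 1746 and 1922 in TSW and 1978 and 2013 in CO. RPMI8226 TSW libraries lay close to MONO on the stromal axis, at 5.36 and 5.23 compared with 4.54 and 4.51, and close to CO on the axis of HLA-B, HLA-C, HLA-E and HLA-F. In MM.1S the heavy chain sum stayed between 494.6 and 634.1 in all conditions, also in CO libraries with stromal sums of 142, 155 and 130.0.

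B2M codes for the light chain shared by all class I molecules and was the most abundant member. MM.1S libraries had an RPKM of 944, 702 and 732 in MONO, 983, 942 and 1000 in TSW and 999.5, 976 and 1114 in CO. CO was above all MONO libraries, and TSW overlapped MONO only through MM.1S MONO replicate 1. The log2 fold change of B2M was 0.31 in TSW (interval 0.01 to 0.61, limma adjusted p 0.112) and 0.39 in CO (0.09 to 0.69, 0.0507), so B2M was not called. Without MM.1S MONO replicate 1 these values were 0.44 (0.0107) and 0.52 (0.00453), which passed the p but not the fold change limit. After quantile normalization B2M was called in MM.1S CO at 0.59 (0.00143). In RPMI8226 B2M was at 829 and 790.2 in MONO, 2791 and 2510.0 in TSW and 3133 and 3012 in CO. No condition overlapped another, although CO relative to TSW was not called (0.22, limma adjusted p 0.0542). B2M rose in RPMI8226 by 1.71 in TSW (limma adjusted p 2.8e-08) and by 1.92 in CO (9.66e-09), and its rank among all genes moved within 12 to 70.

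The ratio of B2M to the heavy chains was higher with BMSCs in most libraries of both lines. B2M per summed heavy chain was 1.28 to 1.49 in MM.1S MONO, 1.70 to 1.94 in TSW and 1.72 to 2.25 in CO. In RPMI8226 the ratio of B2M to the sum of HLA-B, HLA-C, HLA-E and HLA-F was 1.32 and 1.21 in MONO, 1.598 and 1.31 in TSW and 1.58 and 1.496 in CO. Both RPMI8226 CO libraries were above MONO, and TSW overlapped MONO. These ratios were not tested.

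TAP1 codes for 1 chain of the peptide transporter. In MM.1S its RPKM was 21.8, 29.0 and 23.1 in MONO, 39.3, 40.9 and 35.2 in TSW and 27.9, 36.2 and 29.6 in CO. TSW was above MONO in all libraries, and CO overlapped MONO and TSW. TAP1 rose in MM.1S TSW by 0.63 (interval 0.35 to 0.92, limma adjusted p 0.00489), a fold change of 1.549 just above the limit. Without MM.1S MONO replicate 1 it was 0.55 (0.00599), and the call was lost to the fold change limit. In MM.1S CO the value of TAP1 was 0.33 (interval 0.05 to 0.62, adjusted p 0.0698), and without MM.1S MONO replicate 2 it was 0.45 (0.026), below the fold change limit. RPMI8226 libraries had TAP1 at 33.5 and 36.2 in MONO, 146 and 147 in TSW and 128 and 130.1 in CO. TSW was highest and MONO lowest without overlap, although CO relative to TSW was not called (-0.18, limma adjusted p 0.0732). TAP1 rose in RPMI8226 by 2.04 in TSW (limma adjusted p 4.09e-09) and by 1.86 in CO (6.09e-09), a fold change of 4.108 and 3.633.

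TAP2 codes for the partner chain of TAP1. In MM.1S it was at 22.1, 23.4 and 22.3 in MONO, 33.7, 33.1 and 31.7 in TSW and 30.9, 33.8 and 32.4 in CO. MONO was below all other libraries, and TSW and CO overlapped. The log2 fold change of TAP2 in MM.1S was 0.52 in TSW (interval 0.34 to 0.69, limma adjusted p 0.000849) and 0.50 in CO (0.00109), at fold changes of 1.434 and 1.413 below the limit of 1.5. RPMI8226 libraries had TAP2 at 27.4 and 27.6 in MONO, 56.0 and 54.6 in TSW and 54.4 and 49.2 in CO. All CO libraries were below TSW and above MONO, although CO relative to TSW was not called (-0.09, limma adjusted p 0.362). TAP2 rose in RPMI8226 by 0.98 in TSW (limma adjusted p 1.14e-06) and by 0.89 in CO (1.69e-06).

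TAP1 therefore gained on TAP2 in RPMI8226. The ratio of TAP1 to TAP2 was 1.22 and 1.32 in RPMI8226 MONO, 2.60 and 2.69 in TSW and 2.36 and 2.64 in CO. In MM.1S the same ratio of TAP1 to TAP2 was 0.903 to 1.24 in all libraries. TAP1 (6:32845209-32853704), TAP2 (6:32821831-32838739) and the immunoproteasome genes PSMB8 (6:32840717-32844679) and PSMB9 (6:32854192-32859851) lie side by side on chromosome 6.

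TAPBP codes for tapasin, which brings the empty heavy chain to TAP1 and TAP2. MM.1S libraries had an RPKM of 179, 133 and 129 in MONO, 125, 123 and 126 in TSW and 142, 125 and 121 in CO. MM.1S MONO replicate 1 was far above the other MONO libraries, which stood only just above TSW. The log2 fold change of TAPBP in MM.1S was -0.22 in TSW (interval -0.50 to 0.06, limma adjusted p 0.216) and -0.17 in CO (0.315). Without MM.1S MONO replicate 1 these were -0.07 and -0.02. In RPMI8226 TAPBP was at 103 and 101 in MONO, 160.4 and 172 in TSW and 223.5 and 207.5 in CO. The conditions did not overlap, although CO relative to TSW was below the fold change limit (0.37, limma adjusted p 0.00407). TAPBP rose by 0.70 in TSW (limma adjusted p 8.91e-06) and by 1.07 in CO (2.87e-07), the smallest change of any member in TSW at a fold change of 1.627.

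NLRC5 activates transcription of class I genes and was the least abundant member in MM.1S. Its RPKM there was 0.679, 1.26 and 0.972 in MONO, 2.60, 2.13 and 2.13 in TSW and 1.80, 2.54 and 2.29 in CO. MONO was below all other libraries, and TSW and CO overlapped. NLRC5 rose in MM.1S by 0.75 in TSW (interval 0.45 to 1.04, limma adjusted p 0.00222) and by 0.71 in CO (0.42 to 1.0, 0.00285). With a pseudocount of 0.1 in place of 1 the values of NLRC5 were 1.19 and 1.13. At a rank of 8600 to 10417 among all genes NLRC5 was close to the limit of tested expression, and after loess for gene length its CO value was 0.55 (0.00577), below the fold change limit. Its MONO mean of 0.969 was below that limit of 1, so it was tested in MM.1S only through TSW and CO. RPMI8226 libraries had NLRC5 at 4.56 and 4.24 in MONO, 8.46 and 9.70 in TSW and 8.13 and 8.68 in CO. MONO was again lowest, and TSW and CO overlapped. NLRC5 rose in RPMI8226 by 0.90 in TSW (limma adjusted p 1.64e-05) and by 0.80 in CO (2.9e-05).

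Added over all 9 members, class I transcripts took a larger part of RPMI8226 RNA with BMSCs. The PETs of the 9 members made up 0.313% to 0.315% of PETs in RPMI8226 MONO, 0.898% to 0.909% in TSW and 1.0% to 1.02% in CO, with B2M and HLA-B giving most of it. In MM.1S the same 9 members made up 0.360%, 0.291% and 0.281% in MONO, with the highest value in MM.1S MONO replicate 1, and 0.336% to 0.348% in TSW and CO. A larger number of cells with HLA-B and B2M RNA and more of this RNA per cell cannot be told apart in bulk libraries.

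CO and TSW cells shared soluble factors, and CO cells had contact with HS5 cells as well. CO libraries also held more RNA of stromal genes. In RPMI8226 the 27 stromal genes without FN1 summed to 92.8 and 137.2 in CO and 5.36 and 5.23 in TSW. How far this RNA bears on the CO values of the members was not tested. The direct comparison asked whether contact added to class I expression, and for most members it gave small values. In MM.1S the log2 fold changes of CO relative to TSW ran from -0.30 for TAP1 to 0.08 for B2M, and all limma adjusted p were 0.998. TAP1 alone had an unadjusted p below 0.05 (0.0411, interval -0.58 to -0.01), which made 1 of 9, compared with 4.43% of all genes. In RPMI8226 40.4% of all genes had an unadjusted p below 0.05, and 4 of 9 members did, namely HLA-E at 0.17 (adjusted p 0.0731), B2M at 0.22 (0.0542), TAP1 at -0.18 (0.0732) and TAPBP at 0.37 (0.00407). TAPBP passed the adjusted p with a fold change of 1.294 below the limit, and its interval was 0.22 to 0.53. With the replicate number as a block, the limma adjusted p was 0.0108 for B2M, 0.0362 for HLA-E and 0.0368 for TAP1. Their fold changes stayed below the limit. HLA-B at 0.12 (adjusted p 0.276), HLA-C at 0.12 (0.211) and HLA-F at 0.11 (0.333) were slightly higher in CO, and TAP2 at -0.09 (0.362) and NLRC5 at -0.10 (0.477) were slightly lower. By voom on recovered counts 0 members were called in each line. A p above the limit does not show that contact had no effect, and with 2 libraries per condition small differences in HLA-E or B2M could be missed.

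Genes of the pathway outside the 9 members were then compared. Loading of class I needs chaperones and trimming of peptides in the endoplasmic reticulum. The chaperones CALR and CANX did not follow HLA-B in RPMI8226, where CALR was at 1070.0 and 1059 in MONO, 1138 and 1205 in TSW and 1190.0 and 1093 in CO, and neither was called. ERAP1, which trims peptides, fell in RPMI8226 by 0.61 in TSW (limma adjusted p 0.000156) and by 0.63 in CO (9.32e-05), from 17.0 and 16.4 in MONO to 11.1 and 10.2 in TSW and 11.1 and 9.82 in CO. With median-of-ratios scaling ERAP1 was -0.53 in each comparison, and it was -0.58 in TSW without RPMI8226 MONO replicate 1, -0.55 in TSW without TSW replicate 2 and -0.55 in CO without CO replicate 2, all below the fold change limit. ERAP2 rose in RPMI8226 CO by 0.68 (1.47e-05), with 30.4 and 28.2 in MONO and 46.2 and 48.9 in CO. None of the 6 loading and trimming genes was called in MM.1S by limma, although 1 was called in CO when any MM.1S MONO replicate or CO replicate 3 was left out. Of all genes 10.6% were called in MM.1S TSW and 11.8% in CO, and none among 6 cannot be set apart from these shares. In MM.1S ERAP2 was at 37.3, 30.0 and 31.7 in MONO and 50.6, 49.8 and 46.7 in CO. ERAP1 was 0.49 higher in MM.1S CO than in MONO. That value of ERAP1 was 0.21 without MM.1S MONO replicate 1, 0.62 without replicate 2 and 0.63 without replicate 3.

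Peptides for class I are cut by the proteasome, in which PSMB8 and PSMB9 replace PSMB5 and PSMB6 after interferon. In RPMI8226 PSMB8 was at 76.7 and 78.5 in MONO, 162 and 169 in TSW and 128 and 125 in CO. PSMB9 was at 52.6 and 49.4 in MONO, 130.2 and 127 in TSW and 115 and 102 in CO. In both genes TSW was above CO and CO above MONO, and neither was called between CO and TSW. PSMB8 rose by 1.08 in TSW (limma adjusted p 2.19e-07) and 0.70 in CO (3.6e-06), and PSMB9 rose by 1.32 (1.75e-07) and 1.07 (5.2e-07). PSME1 rose in TSW by 0.63 (8.16e-06). PSMB6 fell in RPMI8226 CO by 0.72 relative to MONO (6.12e-06) and by 0.67 relative to TSW (0.000218), and PSMB5 fell in CO by 0.71 relative to MONO (1.48e-05). After loess for gene length PSMB6 was at -0.38 and -0.41 and PSMB5 at -0.42, so these calls of PSMB5 and PSMB6 depended on normalization. PSMB8 per PSMB5 went from 1.41 to 1.55 in RPMI8226 MONO up to 3.66 to 4.15 with BMSCs. In MM.1S PSMB8 per PSMB5 was 1.19 to 1.38 in MONO, 1.79 to 1.995 in TSW and 1.51 to 1.97 in CO. In MM.1S PSMB8 was at 54.6, 45.5 and 38.9 in MONO and 71.5, 67.4 and 60.7 in TSW, and none of the 8 proteasome genes was called by limma. With 10.6% of all genes called in MM.1S TSW and 11.8% in CO, none among 8 cannot be set apart from these shares. A count of 1 came up in MM.1S TSW without MONO replicate 1 or TSW replicate 3, and in CO without MONO replicate 3 or CO replicate 2.

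STAT2, STAT3 and IRF9, regulators of class I genes, rose in TSW in both lines. STAT2 in MM.1S was at 13.6, 16.8 and 14.5 in MONO, 24.4, 25.5 and 22.6 in TSW and 22.6, 22.3 and 20.6 in CO. STAT2 in RPMI8226 was at 6.18 and 5.35 in MONO, 53.1 and 51.6 in TSW and 55.6 and 51.8 in CO. MONO was lowest in each line without overlap. STAT2 rose in MM.1S TSW by 0.66 (limma adjusted p 0.000692), and in CO it was 0.52 higher (0.00304) and below the fold change limit. In RPMI8226 STAT2 rose by 2.98 in TSW and 3.02 in CO. STAT3 rose in MM.1S by 1.47 in TSW (4.47e-07) and in RPMI8226 by 1.68. IRF9 rose in MM.1S by 0.91 in TSW (0.000433) and in RPMI8226 by 3.03.

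Other regulators differed. IRF1, which acts on class I promoters, rose in RPMI8226 by 1.35 in TSW (limma adjusted p 1.19e-07) and 1.36 in CO (7.46e-08), from 20.3 and 22.3 in MONO to 55.5 and 55.8 in TSW and 56.6 and 56.0 in CO. In MM.1S IRF1 was at 34.7, 33.3 and 30.4 in MONO, 43.8, 39.5 and 42.7 in TSW and 42.3, 48.7 and 47.0 in CO. MONO was below all other libraries there, and IRF1 was not called. IRF2 rose in RPMI8226 by 0.99 in TSW and 1.12 in CO. RELB rose in RPMI8226 by 1.37 in TSW, and NFKB2 rose by 0.95, with NFKB2 at 20.6 and 21.6 in MONO and 40.1 and 43.5 in TSW. In MM.1S NFKB2 was at 48.5, 52.0 and 44.1 in MONO and 40.1, 41.3 and 39.0 in TSW. CIITA, the activator of class II genes, fell in MM.1S by 1.08 in TSW (0.000243) and by 0.84 in CO (0.00131), while its relative NLRC5 rose.

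Interferon receptors, their kinases and feedback genes were called in part, with 8 tested in each line. In MM.1S 2 rose in TSW and 2 in CO, where 6.48% and 7.13% of all genes rose. In RPMI8226 3 rose in TSW and 5 in CO, where 14.5% and 16.4% of all genes rose. SOCS3 in MM.1S was at 0.162, 0.115 and 0.110 in MONO, 63.5, 66.9 and 62.7 in TSW and 65.6, 71.9 and 68.4 in CO. It was tested in MM.1S only through TSW and CO. In RPMI8226 SOCS3 was at 1.81 and 1.31 in MONO, 50.9 and 53.8 in TSW and 50.5 and 53.1 in CO. SOCS3 rose in TSW by 5.86 in MM.1S (limma adjusted p 7.5e-12) and by 4.39 in RPMI8226. IFNGR1, a chain of the interferon gamma receptor, rose in MM.1S by 0.62 in TSW (0.000421) and in CO (0.000388), and after quantile normalization its MM.1S value was 0.54 and below the fold change limit. In RPMI8226 IFNGR1 rose by 1.03 in TSW and 1.12 in CO, and IFNAR2 rose by 1.35 and 1.51. IFNAR1 rose in RPMI8226 CO by 0.64 (0.000289), a call lost without RPMI8226 MONO replicate 2 at 0.50. JAK2 rose in RPMI8226 CO by 0.88 (4.32e-05), and in TSW it was 0.55 higher and below the fold change limit.

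**Figure D4:**
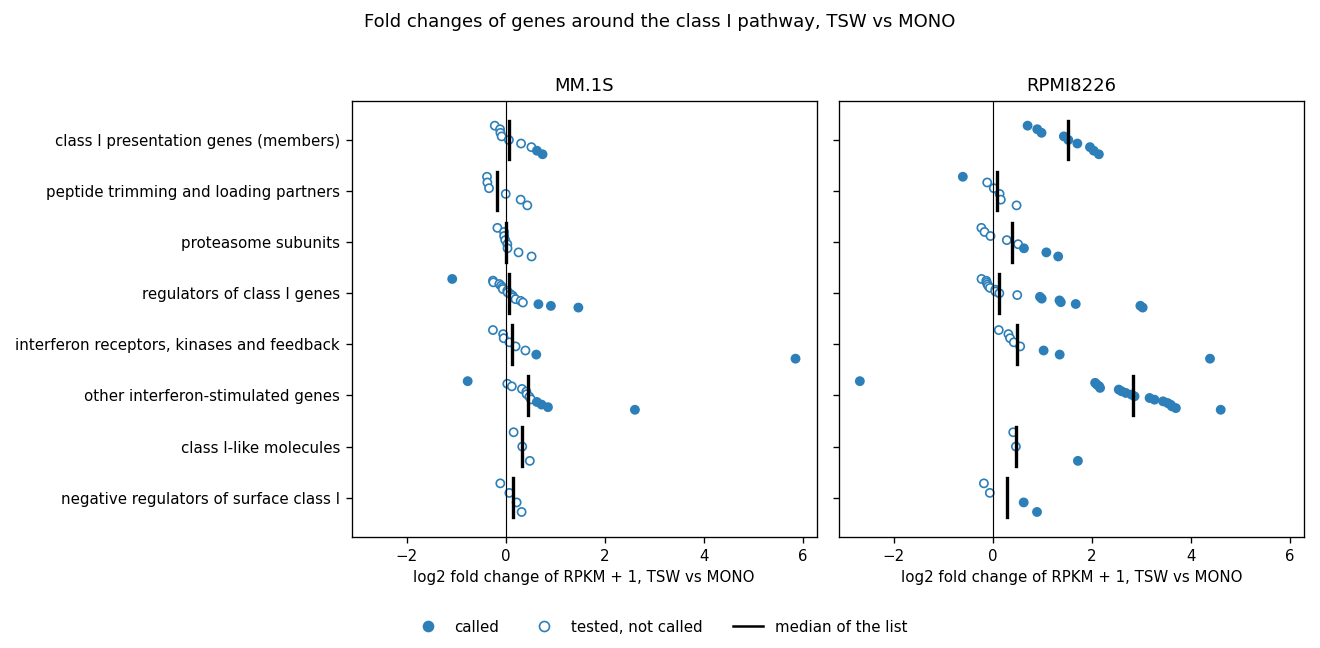
log2 fold change of TSW relative to MONO for the members and for 7 groups of related genes in each line, with a bar at the median and called genes filled. Interferon-stimulated genes outside the class I pathway had medians of 0.45 in MM.1S and 2.83 in RPMI8226.

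Interferon-stimulated genes outside the class I pathway showed how far the wider response went. In RPMI8226 17 of 18 tested rose in TSW and in CO, where 14.5% and 16.4% of all genes rose, with medians of 2.83 and 2.88, compared with 1.53 and 1.65 for the members. They were GBP1, GBP2, GBP4, IFI27, IFI35, IFI44, IFI44L, IFI6, IFIT1, IFIT2, IFIT3, IRF7, ISG15, MX1, OAS1, OAS2 and OAS3. MX1 rose in RPMI8226 TSW by 4.60, from 0.708 and 0.540 to 44.0 and 33.6, and GBP2 rose by 3.53, from 10.9 and 10.1 to 129 and 136. MX1 was below an RPKM of 1 in both RPMI8226 MONO libraries, so it was tested only through TSW and CO. How many of the 18 entered this way was not counted, and the count of 17 partly follows from the filter. In MM.1S 4 of 12 tested rose in TSW, namely GBP1, GBP2, GBP4 and MX1, where 6.48% of all genes rose, and the median was 0.45. The same 4 rose in MM.1S CO, with GBP1 at 0.86, GBP2 at 2.49, GBP4 at 1.55 and MX1 at 0.78. GBP2 rose in MM.1S TSW by 2.61 (limma adjusted p 6.07e-08), from 2.07, 2.30 and 2.08 to 19.1, 18.9 and 16.7. GBP1 rose there by 0.63 (0.00168), and without MM.1S MONO replicate 1 it was 0.54 and below the limit. OAS1 was at 9.40, 9.31 and 8.87 in MM.1S MONO and 9.83, 9.32 and 9.14 in TSW, with overlap, whereas in RPMI8226 it went from 4.55 and 3.75 to 71.4 and 60.2. CXCL10 fell in TSW in both lines, by 0.77 in MM.1S (0.000575) and by 2.69 in RPMI8226, where it went from 46.3 and 45.6 to 6.74 and 5.87. MM.1S TSW thus had higher STAT2, IRF9, GBP2 and NLRC5 than MONO and no call in HLA-B, HLA-C, HLA-E, HLA-F or B2M.

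Between CO and TSW 1 of 12 interferon-stimulated genes was called in MM.1S, where 0.414% of all genes were called, and 3 of 18 in RPMI8226, where 4.29% were. CO libraries also held RNA of stromal genes that TSW libraries lacked, and how far it bears on these calls was not tested. GBP4 was the interferon-stimulated gene called higher in CO than TSW in both lines, at 0.70 in MM.1S (limma adjusted p 0.0357) and 0.97 in RPMI8226 (2.59e-05). In MM.1S GBP4 was at 4.51, 3.05 and 4.04 in TSW and 7.59, 6.35 and 6.59 in CO, without overlap. The MM.1S call of GBP4 was lost when any of MM.1S MONO 2, TSW 2, TSW 3, CO 1, CO 2 or CO 3 was left out, at adjusted p of 0.0561 to 0.265. GBP4 in MM.1S also missed the limit with a pseudocount of 0.1 (0.0619), quantile normalization (0.0536) and the replicate number as a block (0.0606). IFIT2 rose in RPMI8226 CO relative to TSW by 0.88 (0.00022), and IFI27 fell by 0.68 (0.00961). Without RPMI8226 TSW replicate 1 IFI27 was -0.44 (0.0472), and without CO replicate 1 it was -0.65 (0.0876). The call of IFI27 was also lost with a pseudocount of 0.1 (0.134), no expression filter (0.0712) and loess for gene length (-0.41, 0.0846).

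Class I-like genes and genes that limit class I were read last. MR1, which presents metabolites and also pairs with the B2M protein, rose in RPMI8226 by 1.72 in TSW (limma adjusted p 4.94e-08) and 1.90 in CO (1.86e-08), from 6.38 and 6.69 to 24.6 and 23.0 and to 28.1 and 26.1. In MM.1S MR1 was at 5.46, 6.14 and 5.99 in MONO and 7.63, 7.60 and 7.72 in TSW, and neither MR1 nor MICB was called. SUSD6 and TMEM127, whose proteins lead to degradation of class I molecules, rose in RPMI8226 TSW by 0.89 and 0.62. Without RPMI8226 MONO replicate 1 TMEM127 was 0.58 in TSW and below the fold change limit. In CO SUSD6 rose by 0.99 and TMEM127 by 0.80.

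Genes whose RPKM ran most like a member in both lines were listed as a description. For HLA-B these were ATP6AP1 (r 0.952 in MM.1S and 0.952 in RPMI8226), BCKDHA (0.925 and 0.97) and NUDT18 (0.915 and 0.955). For B2M these were UBE2R2 (r 0.977 in MM.1S and 0.992 in RPMI8226), OSTF1 (0.957 and 0.995) and LAPTM4A (0.955 and 0.984). For TAP1 they were SREBF2 (0.972 and 0.995), DLG3 (0.968 and 0.992) and GM2A (0.962 and 0.991). For NLRC5 they were CTNNA1 (0.976 and 0.993), RIOX2 (0.972 and 0.982) and KLF13 (0.97 and 0.984). These r cover 9 and 6 libraries of 3 conditions, and correlation within conditions was not computed. None of those listed for HLA-B, B2M, TAP1 or NLRC5 belongs to the class I pathway.

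With BMSCs, HLA-B, HLA-C, HLA-E, HLA-F, B2M, TAP1, TAP2, TAPBP and NLRC5 all rose in RPMI8226 cells in TSW and in CO. In MM.1S NLRC5 rose in both conditions and TAP1 in TSW, whereas the heavy chains and B2M were not called. The TAP1 call was lost without MM.1S MONO replicate 1, at 0.55. The NLRC5 call in CO was lost with loess for gene length, also at 0.55. NLRC5 was tested in MM.1S only because TSW and CO raised its mean. The reason for the difference between the lines was not tested, and the expression tables alone cannot tell signalling apart from a starting state of the line. Surface HLA-B or HLA-E protein was not analysed here. With 2 libraries per condition in RPMI8226 and 1 MM.1S MONO library standing apart, small changes such as those of B2M, HLA-E and TAPBP in MM.1S remain uncertain.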

How the data were processed

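RNA-seq was analysed for 15 libraries of MM cells sorted as CD90- CD38+, 9 of MM.1S and 6 of RPMI8226. The authors aligned paired reads to hg38 with Subread, summarized them on RefSeq genes with featureCounts, and deposited log2 values of RPKM+1 with 0.0001 added, where plain RPKM had been assumed in the plan. Their edgeR calls were not used here. The offset was removed, and RPKM, transcript lengths and PETs were recovered from steps between values for all 17662 genes with a value, within 0.05 of whole numbers. Libraries held 9008909 to 19050586 PETs. Scripts were tested on simulated data.

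Conditions of each line were fitted together with limma 3.58.1 (R 4.3.3, eBayes with trend) on log2(RPKM+1) of genes whose RPKM averaged 1 or more, and p was adjusted by the Benjamini-Hochberg method. Tables and figures used Python 3.11.15, numpy 2.4.6, pandas 2.3.3 and matplotlib 3.10.9. The 9 members and the lists of related genes were chosen with earlier results of these data known. Named genes were the members, the genes of each list that were called, the most abundant genes of a list with none called, and the 3 genes most like HLA-B, B2M, TAP1 and NLRC5. Of the genes this rule names, 2 are not reported here, nor are counts of the lists that hold them. Alternatives changed the pseudocount to 0.1, dropped the expression filter or raised it to 5, scaled by median of ratios, normalized by quantiles, blocked on replicate number, fitted the 2 compared conditions alone, left out the trend of eBayes or the fold change limit, corrected for gene length by loess, used voom on recovered counts, or left out each library. ATAC-seq of the study was not used here.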

Additional observations from a re-analysis of the deposited data

Results flagged for a closer look

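HLA-E, TAPBP, ERAP1 and NFKB2 are named because their groups separated in opposite directions in the lines. Only members and called genes of the lists were searched, and the share of all genes with this pattern was not counted. Groups of 2 or 3 libraries can separate without a change, and differences between lines were not tested. HLA-E in CO relative to MONO was at -0.23 in MM.1S and 2.14 in RPMI8226, and without MM.1S MONO replicate 1 the MM.1S value was -0.15. TAPBP in TSW relative to MONO was at -0.22 in MM.1S and 0.70 in RPMI8226, and without MM.1S MONO replicate 1 the MM.1S value was -0.07. ERAP1 in CO relative to MONO was at 0.49 in MM.1S and -0.63 in RPMI8226. The MM.1S value of ERAP1 was 0.21 without MM.1S MONO replicate 1, 0.62 without replicate 2 and 0.63 without replicate 3. NFKB2 was at -0.26 in MM.1S and 0.95 in RPMI8226 for TSW relative to MONO, and at -0.22 and 0.74 for CO relative to MONO. Of these, only the RPMI8226 values were called by limma.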

How the results depend on the processing

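Of 111 counts of called members under alternatives, 104 stayed within 1.5 times the reported count and 7 moved. In MM.1S TSW relative to MONO the count of 2 became 1 with a mean RPKM of at least 5, where NLRC5 was no longer tested, and ranged from 1 to 2 when single libraries were left out. In MM.1S CO relative to MONO the count of 1 became 0 with a mean RPKM of at least 5, again without NLRC5, 0 with loess for gene length, 2 with quantile normalization, which added B2M, and 2 without a fold change limit, which added TAP2, and it was 1 in every leave-out. In RPMI8226 CO relative to TSW the count of 0 became 1 without a fold change limit, which added TAPBP. The counts of 9 in RPMI8226 TSW and CO relative to MONO held throughout.

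Of 996 member fold changes, 973 kept direction and side of the threshold, 2 lost and 4 gained a call, and 17 reversed, all near 0 and uncalled. HLA-C in MM.1S TSW relative to MONO was 0.014 with quantile normalization. With libraries left out, HLA-B ranged from -0.0092 to 0.16 and HLA-F from -0.27 to 0.074 there. HLA-B in MM.1S CO relative to MONO was -0.0022 with median-of-ratios scaling and ranged from -0.058 to 0.11 in leave-outs. In MM.1S CO relative to TSW, HLA-B was 0.0009 with quantile normalization and 0.0089 with loess and ranged from -0.12 to 0.020, TAP2 was 0.0004 with quantile normalization and ranged from -0.052 to 0.012, NLRC5 ranged from -0.11 to 0.058 and TAPBP from -0.020 to 0.096. TAP2 in RPMI8226 CO relative to TSW was 0.0014 with quantile normalization. Apart from changes that follow from fewer genes, fewer libraries or a dropped limit, the cause was not tested.

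Of 1875 values of related genes called in the reported fit 1844 kept their call, and of 888 counts of called genes per list 829 stayed within 1.5 times and 59 moved. Among these, called proteasome genes in RPMI8226 CO relative to TSW ranged from 0 to 8, the most without a fold change limit, and loading genes in MM.1S CO relative to MONO from 0 to 3. Without a fold change limit, calls of all genes went from 1080 to 2769 in MM.1S TSW and from 3352 to 6921 in RPMI8226 TSW relative to MONO. In MM.1S CO relative to TSW 42 calls became 134 when the filter was dropped, 7 when it was raised to an RPKM of 5 and 44 without a fold change limit. In RPMI8226 CO relative to TSW 4.29% of tested genes were called. This share was 6.51% with voom, 2.73% without the expression filter and 27.6% without a fold change limit. Between CO and TSW in RPMI8226 the share of calls that were higher went from 44.24% to 59.0% with quantile normalization and 72.91% with loess. Libraries with the same replicate number did not deviate together in MM.1S (r -0.38 to 0.286), and 2 pairs in RPMI8226 (0.164 to 0.271) are too few to decide. The replicate number as a block changed no member call. In RPMI8226 CO relative to TSW it brought the adjusted p of B2M (0.0108), HLA-E (0.0362) and TAP1 (0.0368) below 0.05 with fold changes still under the limit, and likewise TAP1 in MM.1S CO relative to MONO (0.031). Of related genes it ended only the call of GBP4 in MM.1S CO relative to TSW (adjusted p 0.0606). Where a RPMI8226 library was left out, the lone library of its condition was assumed to vary like the others. Depth limits NLRC5 in MM.1S, at 46 to 293 PETs.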
